A study of Mus musculus with 9 samples.

Results

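The STAT (signal transducer and activator of transcription) genes Stat2, Stat3, Stat4, Stat5a, Stat5b and Stat6 were followed in bone marrow-derived dendritic cells (DCs). They were chosen by name, with earlier results of these data known, and make up 6 of the 55471 genes counted. All 6 passed the filter on low counts, which left 16260 genes for testing. The DCs were grown from bone marrow of wild-type female C57BL/6 mice aged 8 to 20 weeks, with GM-CSF at 20 ng/mL, and were harvested on day 8 or 9. They were then left unstimulated, or were given LPS from Escherichia coli O111:B4 at 100 ng/mL or IFN-β at 1000 U/mL, each for 6 h. LPS, found on the surface of Gram-negative bacteria, is sensed by the Toll-like receptor TLR4. IFN-β belongs to the type I interferons. The 3 groups had 3 libraries each, with the letters A, B and C. The labels do not say whether the letters stand for separate mice or cultures, so p-values measure the spread between these samples, which may be technical. All groups had GM-CSF during culture, and GM-CSF itself signals through STAT5.

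The libraries held 33425803 to 43735199 counts on genes. Levels are given as CPM, the counts scaled to a common library size after TMM normalization, which allows for unequal composition of the RNA. TMM factors were between 1.18 and 1.26 in unstimulated libraries, between 0.783 and 0.841 in the LPS group and between 0.977 and 1.02 in the IFN-β group, and a count of 3 stood for 0.0674 to 0.106 CPM. All 12 marker genes listed for GM-CSF bone marrow DCs and macrophages were above 1 CPM in every library. Their summed level was 16589 to 21239 CPM over the 9 libraries, and much of it was Lyz2 (7950 to 13124 CPM). The sum hides markers that moved in opposite directions with LPS. Cd86 was at 38.4 to 64.7 CPM unstimulated and 296 to 422 CPM with LPS. Csf1r was at 1026 to 1198 CPM unstimulated and 546 to 589 CPM with LPS. Flt3 was at 1.88 to 4.99 CPM and Zbtb46 at 27.8 to 57.4 CPM. Lyz2, Cd86, Csf1r, Flt3 and Zbtb46 were named after their values were seen. In bulk RNA, fewer cells of a type and less RNA per cell cannot be told apart.

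STAT proteins wait in the cytoplasm until a cytokine receptor binds its ligand. Janus kinases on the receptor then phosphorylate the STAT, which forms dimers, enters the nucleus and binds the promoters of its target genes. STAT2 works mainly in ISGF3, a complex with IRF9 that type I interferons activate and that binds the interferon-stimulated response element (ISRE). STAT3 acts downstream of the IL-6 and IL-10 families, STAT4 of IL-12, STAT5A and STAT5B of GM-CSF, IL-2 and growth hormone, and STAT6 of IL-4 and IL-13. STAT dimers bind the gamma-activated sequence (GAS). STAT genes can themselves be targets of these factors and of NF-κB, so their promoters were searched for these sites.

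The 6 genes lie on chromosomes 1, 10 and 11 of the mouse genome (GRCm38, GENCODE M21). Stat6 (ENSMUSG00000002147) is at chr10:127642986-127660957 on the plus strand, 609601 bp before Stat2 (ENSMUSG00000040033) at chr10:128270559-128292849 on the same strand. Stat5b (ENSMUSG00000020919, chr11:100780731-100850724, minus strand) and Stat5a (ENSMUSG00000004043, chr11:100859351-100885169, plus strand) point away from each other across a gap of 8626 bp. Stat3 (ENSMUSG00000004040, chr11:100885098-100939540, minus strand) follows Stat5a so closely that their 3′ ends overlap by 72 bp on opposite strands. These 72 bp are 1.01% of the exonic length of Stat5a and 0.756% of that of Stat3. Stat4 (ENSMUSG00000062939) is at chr1:51987148-52107189 on the plus strand. It shares 1033 bp of exon, 26.7% of its exonic length, with Gm28177, a processed transcript on the same strand. Gm28177 held 6 to 29 counts per library, but reads that fit both genes may have gone uncounted. The per-length level of Stat4 may thus be too low. Stat6 shares 40 bp of exon with Nab2 on the opposite strand. Stat5a and Stat5b are close paralogs, and 265 of the 7696 stretches of 100 bases in Stat5a transcripts (3.44%) also occur in Stat5b.

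RefSeq (GRCm38.p6) gives 9 promoters for the 6 genes. In a window of 250 bases before to 50 bases after each start, both strands were searched for GAS (TTCNNNGAA), the ISRE (GAAANNGAAA) and the κB consensus. The ISRE was found in 3.44% of all 32851 mouse promoters in RefSeq windows of the same length, GAS in 8.3% and the κB consensus in 8.46%. Among the STAT promoters, the letters of the ISRE were found at Stat2 and at an internal start of Stat4, and those of the κB consensus at the second start of Stat5a. The other 6 promoters held none of the 3 motifs, and none of the 9 held GAS. A single κB match among 9 promoters is near the share of 8.46% over all promoters, and Stat5a had more than 1 promoter to search. Stat3 and Stat5b, which also rose with LPS as described below, held no match. The promoters that held a match are shown. The 250 bases before each of these starts are given 5′ to 3′ with the match in capitals. Positions in the text count back from the start.
Stat2: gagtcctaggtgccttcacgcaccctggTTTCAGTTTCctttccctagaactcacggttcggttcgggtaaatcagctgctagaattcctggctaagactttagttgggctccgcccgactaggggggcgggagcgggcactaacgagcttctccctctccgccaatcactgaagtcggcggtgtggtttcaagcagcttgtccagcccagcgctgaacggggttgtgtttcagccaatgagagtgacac
Stat4: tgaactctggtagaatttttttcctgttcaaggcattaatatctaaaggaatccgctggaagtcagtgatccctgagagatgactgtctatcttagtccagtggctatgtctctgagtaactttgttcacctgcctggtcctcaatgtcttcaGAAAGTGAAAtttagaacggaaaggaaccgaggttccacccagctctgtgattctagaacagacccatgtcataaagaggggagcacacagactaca
Stat5a: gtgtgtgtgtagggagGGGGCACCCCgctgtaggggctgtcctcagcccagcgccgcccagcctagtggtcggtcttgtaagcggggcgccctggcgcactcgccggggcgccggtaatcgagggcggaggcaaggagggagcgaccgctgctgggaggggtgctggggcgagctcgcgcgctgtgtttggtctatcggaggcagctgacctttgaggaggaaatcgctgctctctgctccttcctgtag
The Stat2 window is chr10:128270248-128270497 (plus strand), and its ISRE match, read on the opposite strand, begins at position -222. The Stat4 window is chr1:52007990-52008239 (plus strand), inside the gene, and its match begins at -97. The Stat5a window is chr11:100860234-100860483 (plus strand), and the match begins at -234. A match is a description of the letters and was not tested for binding.

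To ask how the STAT genes respond to the 2 stimuli, each group was compared with the unstimulated DCs and the 2 stimulated groups were compared with each other. The comparisons share libraries and are not independent. With LPS, 5 of the 6 genes rose and none fell, with folds of 1.68 to 6.42. With IFN-β, 3 genes rose (Stat2, Stat3 and Stat4) and none fell. Between IFN-β and LPS, Stat3, Stat5a and Stat5b were lower with IFN-β. These counts need the background of the whole data set. Of all tested genes, 68.2% changed with LPS (32.8% higher, 35.4% lower), 46.9% with IFN-β (23.6% higher, 23.3% lower), and 49.1% differed between IFN-β and LPS (25.8% higher, 23.3% lower). The libraries of the 2 groups did not overlap for 5, 3 and 5 of the 6 genes, against 72.4%, 58.1% and 56.8% of all tested genes. The median log2 fold change of the 6 genes was 1.51 with LPS, 0.34 with IFN-β and -0.75 for IFN-β against LPS, against -0.04, -0.02 and 0.02 over all tested genes. Every adjusted p-value below comes from the quasi-likelihood test of edgeR and was adjusted over all tested genes (Benjamini-Hochberg), unless another test is named.

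**Figure D1:**
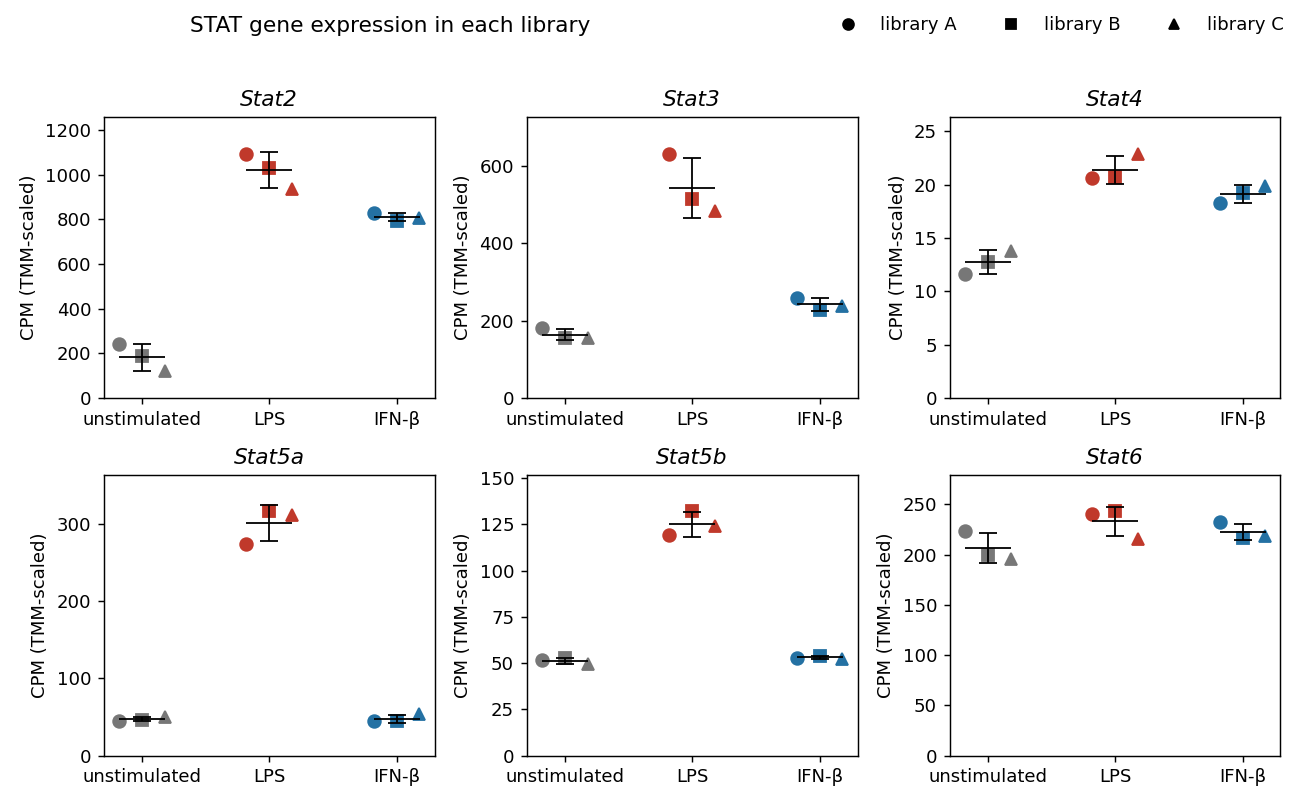
TMM-scaled CPM (linear axes from 0, a scale for each gene) of the 6 STAT genes in the 3 unstimulated, 3 LPS and 3 IFN-β libraries. Marker shapes give the letters, the long bars the mean and the whiskers the SD (n = 3). Stat2 was at 120 to 240 CPM without stimulation and at 793 CPM or more in all 6 stimulated libraries, Stat5a was at 274 CPM or more in the 3 LPS libraries and at 53.7 CPM or less in the others, and the Stat6 groups overlapped.

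Stat2, the STAT of the ISGF3 complex, rose under both stimuli. Its level was 240, 187 and 120 CPM in unstimulated libraries A, B and C, 1093, 1030 and 934 CPM with LPS, and 827, 793 and 807 CPM with IFN-β. Every stimulated library was above every unstimulated one, and the LPS libraries were above the IFN-β libraries. The second separation depended on TMM scaling, since CPM by library size alone overlapped at 785 to 862 with LPS and 793 to 809 with IFN-β. The rise was 5.59-fold with LPS (log2 fold change 2.48, standard error 0.20, adjusted p = 1.2e-06) and 4.44-fold with IFN-β (log2 fold change 2.15, standard error 0.20, adjusted p = 1.5e-05). The difference between IFN-β and LPS was -0.33 on the log2 scale (95% interval -0.76 to 0.09) and missed the threshold (adjusted p = 0.176). It passed with the letters as a block (-0.32, adjusted p = 0.0459), in a fit of the 2 stimulated groups alone (-0.31, adjusted p = 0.012) and without unstimulated library C (-0.33, adjusted p = 0.0203). It shrank to -0.05 under library size alone (adjusted p = 0.801).

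The unstimulated libraries differed most in Stat2, with a coefficient of variation of 32.8%, against 2.12% with IFN-β and 7.84% with LPS. Irf9, the DNA-binding partner of STAT2 in ISGF3, had the same order in these libraries, at 62.8, 57.1 and 43.9 CPM in A, B and C. The summed level of 12 textbook ISGF3 targets was 931, 683 and 332 CPM in the same order. Unstimulated library C was thus lowest for Stat2, for Irf9 and for the target sum, and without it the log2 fold change of Stat2 over the unstimulated DCs was 2.25 with LPS and 1.92 with IFN-β. The part of this difference between libraries in the Stat2 result was not tested.

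Stat3, the STAT of IL-6 and IL-10 signalling, rose more with LPS than with IFN-β. It stood at 180, 156 and 154 CPM in unstimulated libraries A, B and C, 631, 514 and 484 CPM with LPS, and 259, 228 and 238 CPM with IFN-β. The 3 groups did not overlap, with IFN-β between the others. The log2 fold change was 1.73 with LPS (3.32-fold, standard error 0.11, adjusted p = 2.0e-07) and 0.56 with IFN-β (1.48-fold, standard error 0.11, adjusted p = 0.00164). The log2 difference between the responses was -1.17 (standard error 0.11, adjusted p = 9.6e-06).

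Stat5a and Stat5b, the paralogs that carry GM-CSF and IL-2 signals, rose with LPS. Stat5a was at 44.3, 46.7 and 49.6 CPM without stimulation and at 274, 316 and 312 CPM with LPS. With IFN-β it was at 44.3, 45.0 and 53.7 CPM, a range that overlaps the unstimulated libraries. Its rise with LPS was 6.42-fold (log2 fold change 2.68, standard error 0.10, adjusted p = 5.3e-09) and the largest fold of the 6 genes. The log2 fold change with IFN-β was 0.03 (95% interval -0.18 to 0.23, adjusted p = 0.844). The difference between the stimuli, -2.66 (standard error 0.10, adjusted p = 2.0e-08), ranked 32 by p-value among all 16260 tested genes.

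Stat5b was at 51.6, 52.7 and 49.6 CPM without stimulation and at 119, 132 and 124 CPM with LPS. The IFN-β libraries were at 53.0, 54.1 and 52.5 CPM, of which the lowest was below the highest unstimulated library. LPS raised Stat5b 2.44-fold (log2 fold change 1.29, standard error 0.06, adjusted p = 2.6e-08). The log2 fold change with IFN-β was 0.05 (95% interval -0.08 to 0.19, adjusted p = 0.5), and the stimuli differed by -1.23 (standard error 0.06, adjusted p = 1.1e-07).

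The balance of the paralogs was followed as the ratio of Stat5a to Stat5b per kb of exon in each library, which does not depend on library scaling. It was 0.666, 0.688 and 0.775 without stimulation, 1.80, 1.86 and 1.95 with LPS, and 0.649, 0.646 and 0.793 with IFN-β. Stat5a was below Stat5b in the 6 libraries without LPS and above it in the 3 with LPS. The log2 ratio rose by 1.40 between unstimulated and LPS libraries without overlap (exact two-sided permutation test, p = 0.1, the smallest that 3 against 3 libraries allow; adjusted p = 0.107 over 15 ratio tests). With the longest transcript as the length, Stat5a was above Stat5b in all 3 groups. The longest Stat5a transcript (3958 bp) has 6 exons, against 16 merged exons over all its transcripts (7133 bp). Which paralog is higher without LPS thus depends on the length used. The shift with LPS does not, because the lengths cancel.

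Stat4, the STAT of IL-12 signalling in T and NK cells, was the lowest of the 6 genes per length and rose moderately. The length used includes the exon shared with Gm28177. Its 457 to 782 counts per library gave 11.6, 12.8 and 13.8 CPM without stimulation, 20.6, 20.7 and 22.9 CPM with LPS, and 18.3, 19.2 and 19.9 CPM with IFN-β. No library of one group overlapped another group under TMM scaling, but by library size alone the unstimulated range of 13.7 to 17.4 CPM overlapped that of LPS, 16.1 to 19.3 CPM. The log2 fold change was 0.75 with LPS (1.68-fold, standard error 0.08, adjusted p = 1.6e-05) and 0.59 with IFN-β (1.5-fold, standard error 0.08, adjusted p = 2.7e-04). The difference of -0.16 between the stimuli (95% interval -0.35 to 0.02) missed the threshold (adjusted p = 0.129). With scaling by library size only, the LPS value was 0.17 and was lost (adjusted p = 0.169), while the rise with IFN-β was kept at 0.28.

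Because T and NK cells are the usual source of Stat4, their markers were summed in each library. The 10 T cell markers summed to 0.921 to 1.31 CPM without stimulation, 3.40 to 4.57 CPM with LPS and 1.45 to 2.15 CPM with IFN-β. Cd8b1 was at 0 in every library, and Cd3e, Cd3g and Trac had at most 3 counts in any library. The 8 NK cell markers summed to 1.85 to 2.0, 9.56 to 16.3 and 12.6 to 18.2 CPM. Gzma, Prf1 and Klra8 were at 0, and Ncr1, Eomes and Gzmb had at most 3 counts in any library. Lck was at 3.08 to 3.87 CPM with LPS, where it made up most of the T cell sum, and at 0.157 to 0.429 CPM without stimulation. Klrk1 was at 1.65 to 1.86 CPM without stimulation, 9.47 to 16.3 CPM with LPS and 12.6 to 18.1 CPM with IFN-β, most of the NK cell sum in each group. Other listed genes went the other way. Cd2, a T cell marker, was at 0.226 to 0.355 CPM without stimulation and 0 to 0.177 CPM with LPS. Klrb1c, an NK cell marker, was at 0.135 to 0.279 CPM without stimulation and 0.0583 to 0.0708 CPM with LPS. Lck, Klrk1, Cd2 and Klrb1c were singled out after their values were seen. The part of such cells in the Stat4 rise was not tested.

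Stat6, the STAT of IL-4 and IL-13 signalling, passed the test in none of the 3 comparisons. It was at 224, 200 and 196 CPM without stimulation, 240, 243 and 216 CPM with LPS, and 232, 217 and 219 CPM with IFN-β. All 3 groups overlapped. The log2 fold change was 0.17 with LPS (95% interval 0.01 to 0.34, adjusted p = 0.0632) and 0.11 with IFN-β (95% interval -0.06 to 0.28, adjusted p = 0.265). The difference between the stimuli was -0.06 (95% interval -0.23 to 0.10, adjusted p = 0.514). The LPS value passed the threshold with the letters as a block (0.17, adjusted p = 0.0169), with DESeq2 (0.21, adjusted p = 0.022), without unstimulated library A (0.23, adjusted p = 0.0257) and without LPS library C (0.22, adjusted p = 0.0301). With scaling by library size only it became a fall, at -0.41 (adjusted p = 1.3e-04).

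**Figure D2:**
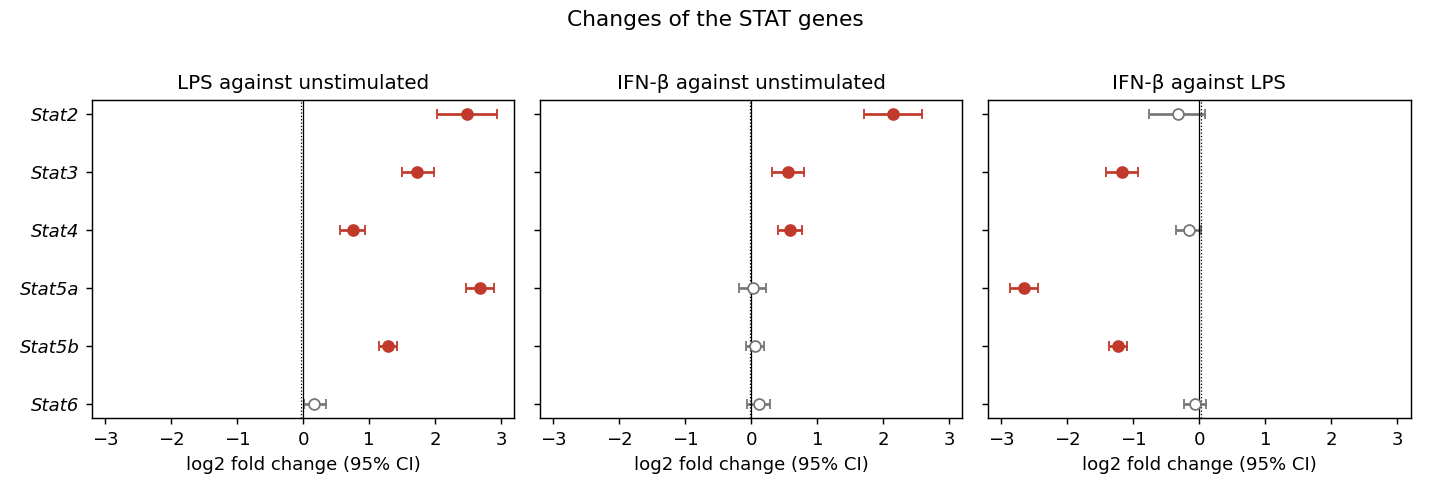
Log2 fold changes of the 6 STAT genes in the 3 comparisons, with 95% intervals from edgeR. Filled points passed an adjusted p of 0.05, open points did not, and the dotted line is the median of all tested genes. LPS values run from 0.17 (Stat6) to 2.68 (Stat5a). With scaling by library size only, Stat6 has the opposite sign in all 3 panels, Stat5a and Stat5b in the IFN-β panel (also with upper-quartile factors, at -0.05 and -0.02) and Stat4 in the panel of IFN-β against LPS.

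The choice of scaling moves all genes together, so the STAT genes were also set against the median of all tested genes. Under library size alone, that median shifted by -0.58 in the LPS comparison, by -0.31 in the IFN-β comparison and by 0.27 for IFN-β against LPS. Relative to the median, Stat4 rose by 0.79 with LPS under both scalings, and Stat6 stood at 0.21. Stat5a was 2.73 above the median with LPS and 0.04 with IFN-β, also under both. This agreement follows from the subtraction of the median, so it cannot tell which scaling is right.

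Per kb of exon, the level at which genes can be compared, the order of the 6 genes changed with the stimulus. Without stimulation Stat6 was highest (46.9 ± 3.39 CPM per kb, SD, n = 3), followed by Stat2 (30.8 ± 10.1), Stat3 (17.2 ± 1.51), Stat5b (9.26 ± 0.278), Stat5a (6.57 ± 0.372) and Stat4 (3.29 ± 0.288), with no overlap between neighbours. With LPS the order was Stat2 (172 ± 13.5), Stat3 (57.0 ± 8.18), Stat6 (52.9 ± 3.37), Stat5a (42.2 ± 3.23), Stat5b (22.6 ± 1.24) and Stat4 (5.54 ± 0.338), and only Stat3 and Stat6 overlapped. With IFN-β Stat2 was highest (137 ± 2.89), and the others kept the order they had without stimulation, from Stat6 (50.6 ± 1.86) through Stat3 (25.3 ± 1.67), Stat5b (9.61 ± 0.146) and Stat5a (6.68 ± 0.729) to Stat4 (4.94 ± 0.203). With the longest transcript as the length, Stat5a, whose longest transcript has 6 exons, came before Stat5b in all groups and before Stat6 with LPS. The unstimulated ranges of Stat6, Stat2 and Stat3 then overlapped with their neighbours. The Stat4 levels may be too low, because its length includes the exon shared with Gm28177.

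Summed over the 6 genes, the level was 114 ± 14.1 CPM per kb in unstimulated DCs, 352 ± 20.8 under LPS and 234 ± 5.97 under IFN-β (SD, n = 3). The Stat6 share of this sum fell from 41.4% ± 2.59 to 15% ± 0.389 with LPS and 21.6% ± 0.320 with IFN-β, while its own TMM-scaled level stayed within 46.9 to 52.9 CPM per kb on average. Stat2 went from 26.6% ± 5.75 to 48.8% ± 0.975 and 58.4% ± 0.256. The Stat5a share was 5.85% ± 1.05, 12.0% ± 1.48 and 2.86% ± 0.330 in the same order, so with IFN-β it was lower than without stimulation although the Stat5a level under TMM was not. Under library size alone the level was lower too (-0.28 on the log2 scale, adjusted p = 0.0369).

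**Figure D3:**
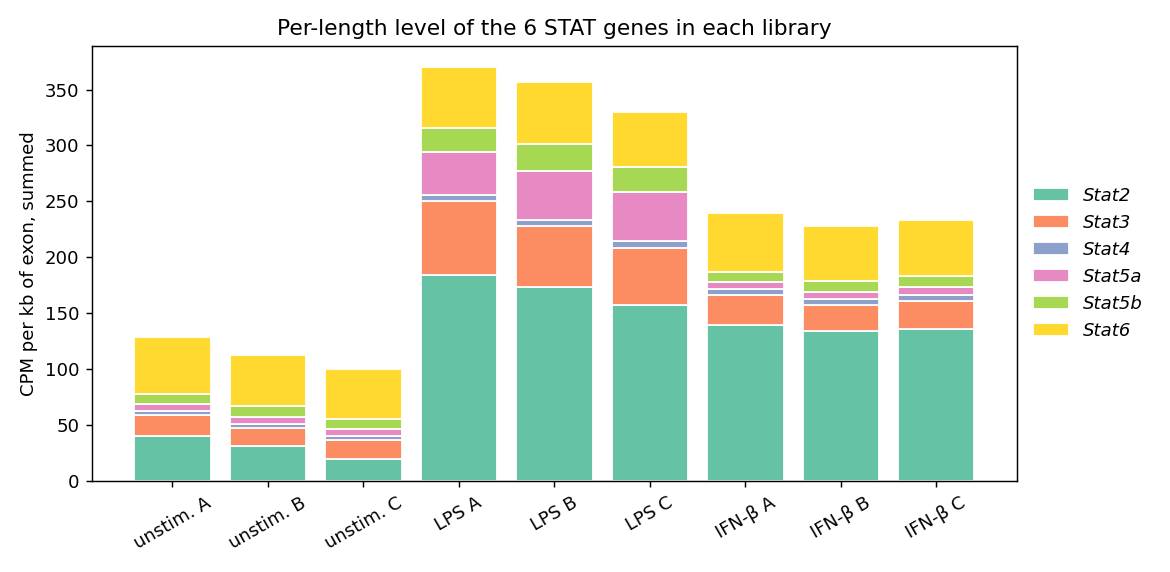
Per-length level (CPM per kb of exon, linear axis from 0) of the 6 STAT genes, stacked for each of the 9 libraries. The mean total is 114 in the unstimulated, 352 in the LPS and 234 in the IFN-β libraries, and the Stat2 segment is the tallest in all 6 stimulated libraries. With scaling by library size only the totals change, but the shares within a library do not.

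Ratios within a library showed the same shifts without any scaling. The Stat2 to Stat6 ratio was 0.796, 0.696 and 0.456 without stimulation, 3.38, 3.16 and 3.22 with LPS and 2.65, 2.71 and 2.74 with IFN-β. The Stat3 to Stat6 ratio was 0.372, 0.361 and 0.363, then 1.22, 0.978 and 1.04, and 0.515, 0.484 and 0.503. Stat2 relative to Stat3 was highest with IFN-β, at 5.14, 5.61 and 5.45, against 2.78, 3.23 and 3.11 with LPS and 2.14, 1.93 and 1.26 without stimulation. None of the 3 ratios overlapped between any 2 groups, and each comparison had the smallest p possible (exact permutation test, p = 0.1, adjusted p = 0.107).

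The letters let the response be read within A, B and C. The log2 difference of Stat2 with LPS was 2.19, 2.46 and 2.95 in A, B and C, and with IFN-β it was 1.79, 2.08 and 2.74. The range over letters was narrower for Stat5a with LPS (2.62 to 2.75), Stat5b with LPS (1.19 to 1.32), Stat3 with LPS (1.65 to 1.81) and Stat4 with LPS (0.68 to 0.81). Stat2 was lower with IFN-β than with LPS in each letter, by -0.40, -0.38 and -0.21 on the log2 scale, but by library size alone letter C had 793 CPM with IFN-β and 785 CPM with LPS. Stat6 was higher with LPS in each letter, by 0.10, 0.28 and 0.14, and by library size alone it was lower in each (188, 203 and 181 CPM with LPS against 264, 248 and 247 CPM).

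The genes whose levels followed each STAT gene most closely over the 9 libraries were found by Pearson's r of log2(CPM + 0.5) among 11088 genes. The 9 points fall into 3 groups and share depth and scaling, so r is a description. Closest to Stat2 were Phf11a (r = 0.9993), Irgm1, an interferon-inducible GTPase (0.9992), and Ifit2, an interferon-induced RNA-binding protein (0.999). Closest to Stat3 were Ifnar2, a chain of the type I interferon receptor (0.9982), Sh3bp4 (0.9981) and Mefv, which encodes pyrin (0.9978). Ifnar2 had log2 fold changes of 1.70 with LPS and 0.54 with IFN-β, close to the values of Stat3. For Stat5a they were Gphn (0.9987), Ptgs2os (0.9979) and St3gal3 (0.9979). For Stat5b they were the cytokine subunit genes Il23a (0.9989) and Il12b (0.9982) and Ptgs2os (0.9981). Il23a and Il12b moved much further than Stat5b, with log2 fold changes of 10.84 and 10.05 with LPS. Stat4 was followed by Olfr920 (0.9949), Olfr760-ps1 (0.9939) and the transcription factor gene Creb5 (0.9936). Stat6 had the lowest values of r, with Ccdc71 (0.9741), Edc3 (0.9626) and Ncf1 (0.9614).

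The Janus kinases, which phosphorylate the STATs, all rose under both stimuli (4 of 4). Their median log2 fold change was 0.84 with LPS and 0.61 with IFN-β. Of all tested genes, 32.8% were higher with LPS and 23.6% with IFN-β. Jak2, the kinase of the GM-CSF receptor, rose by 2.12 with LPS (standard error 0.09, adjusted p = 1.7e-08) and 0.74 with IFN-β. Tyk2 and Jak1, the kinases of the type I interferon receptor, rose by 1.01 and 0.67 with LPS and by 0.74 and 0.49 with IFN-β. Jak3, the partner of the common gamma chain, rose by 0.41 and 0.36. Jak2 and Tyk2 were lower with IFN-β than with LPS. Under library size alone, 2 of 4 kinases were higher under each stimulus and Jak3 had the opposite sign with LPS. Irf9 rose by 1.20 with LPS (adjusted p = 3.6e-06) and 0.74 with IFN-β (adjusted p = 3.5e-04), and was lower with IFN-β than with LPS by -0.46 on the log2 scale (adjusted p = 0.00565). The Irf9 difference was -0.18 under library size alone and missed the threshold.

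Of 39 receptor chains that signal through STATs, 32 were tested. With LPS 22 were higher and 8 lower, and with IFN-β 16 were higher and 6 lower. Over all tested genes the shares were 32.8% higher and 35.4% lower with LPS, and 23.6% and 23.3% with IFN-β. The strongest by p-value was Il15ra, the IL-15 receptor α chain, with log2 fold changes of 3.78 with LPS and 2.40 with IFN-β. Ifnar2 was among those that rose. Among the chains upstream of STAT3, Il6ra, the IL-6 receptor, had -1.65 with LPS and Il6st, the shared gp130 chain, had -1.62, against -0.26 and -0.38 with IFN-β, and all of these passed the test as falls. The IL-10 receptor chains Il10ra and Il10rb, chosen after their values were seen, rose by 1.29 and 1.30 with LPS and by 0.93 and 0.75 with IFN-β. Other listed chains, also named after their values were seen, went both ways with LPS. Lifr had -2.68 and Lepr -1.5, while Csf3r had 2.11 and Il20rb 1.66. With scaling by library size only, the counts became 16 higher and 12 lower with LPS, and 12 higher and 10 lower with IFN-β.

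Of 19 inhibitors of JAK-STAT signalling, 13 were higher and 3 lower with LPS, and 8 were higher and 1 lower with IFN-β. The background is that 68.2% of all tested genes changed with LPS (32.8% higher, 35.4% lower) and 46.9% with IFN-β (23.6% higher, 23.3% lower). The share of inhibitors that changed with IFN-β is near that of all tested genes, and the counts are descriptions. Socs3, a feedback inhibitor of gp130 signalling, rose by 3.70 with LPS and 1.11 with IFN-β on the log2 scale. Socs1, a feedback inhibitor of interferon signalling, rose by 2.76 and 1.83, and Usp18, which restrains the type I interferon receptor, by 4.71 and 3.69. The Socs3 difference between IFN-β and LPS was -2.58 (standard error 0.15, adjusted p = 3.2e-07). Socs6 fell by 1.21 with LPS and had 0.06 with IFN-β. Under library size alone, 7 of the 19 were higher and 9 lower with LPS, and 5 higher and 3 lower with IFN-β, so the direction of this group depends on the scaling.

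The lists of textbook targets overlap, since Usp18, Socs1, Socs2, Socs3 and Cish also stand among the inhibitors, Il2ra and Il12rb2 among the receptors, and Pim1, Bcl6 and Ccnd1 in the lists of both STAT3 and STAT5. All 12 ISGF3 targets rose under both stimuli, with a median log2 fold change of 5.14 with LPS and 3.98 with IFN-β. Of the 12, 7 were lower with IFN-β than with LPS. The shares of all tested genes were 32.8%, 23.6% and 23.3% in the same order. The target lists were chosen with earlier results of these data known, so these counts are descriptions. Mx1, an antiviral GTPase, went from 129 ± 16.4 CPM to 2578 ± 210 CPM under LPS and 1355 ± 112 CPM under IFN-β (SD, n = 3). The target sum was 25471 to 32682 CPM with LPS and 10565 to 13015 CPM with IFN-β.

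The STAT3 targets split with LPS, where 8 of 12 rose and 4 fell. Socs3 and the kinase gene Pim1 (1.46) rose, while Myc fell by 3.13 and the cyclin gene Ccnd1 by 0.68. With IFN-β, 6 rose and 1 fell (9 and 1 with the letters as a block), and Ccnd1 had 2.22. Of 10 STAT5 targets, 7 rose and 2 fell with LPS, and 7 rose and 1 fell with IFN-β, where neither Stat5 gene passed the test. The LPS counts became 5 and 3 under library size alone. Since 68.2% of all tested genes changed with LPS and 46.9% with IFN-β, the counts of these lists are descriptions. The lists were not tested as sets. Osm, which encodes the cytokine oncostatin M, had log2 fold changes of 1.90 and 0.59. Id1, an inhibitor of helix-loop-helix factors, fell by 2.16 and 1.20.

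Of 11 STAT6 targets tested out of 13, 3 rose and 5 fell with LPS, and 1 rose and 1 fell with IFN-β (2 and 4 with the letters as a block). Under library size alone, 1 rose and 6 fell with LPS, and the median log2 fold change went from -0.43 to -1.01. Ccl22, a chemokine gene, rose by 3.36 and 0.80, and Pparg, a nuclear receptor gene, fell by 2.37 and 0.92. Mrc1, the mannose receptor gene, fell by 1.33 with LPS and had -0.25 with IFN-β. Of 5 STAT4 targets tested out of 6, 1 rose and 2 fell with LPS, and 1 rose and 3 fell with IFN-β. Il12rb2, a chain of the IL-12 receptor, rose by 1.32 and 1.21, and Il18rap, a chain of the IL-18 receptor, fell by 3.0 and 1.01. Ifng had too few counts to be tested. Of all tested genes, 68.2% changed with LPS and 46.9% with IFN-β. The LPS counts of the STAT6 and STAT4 lists are near that share and are descriptions.

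**Figure D4:**
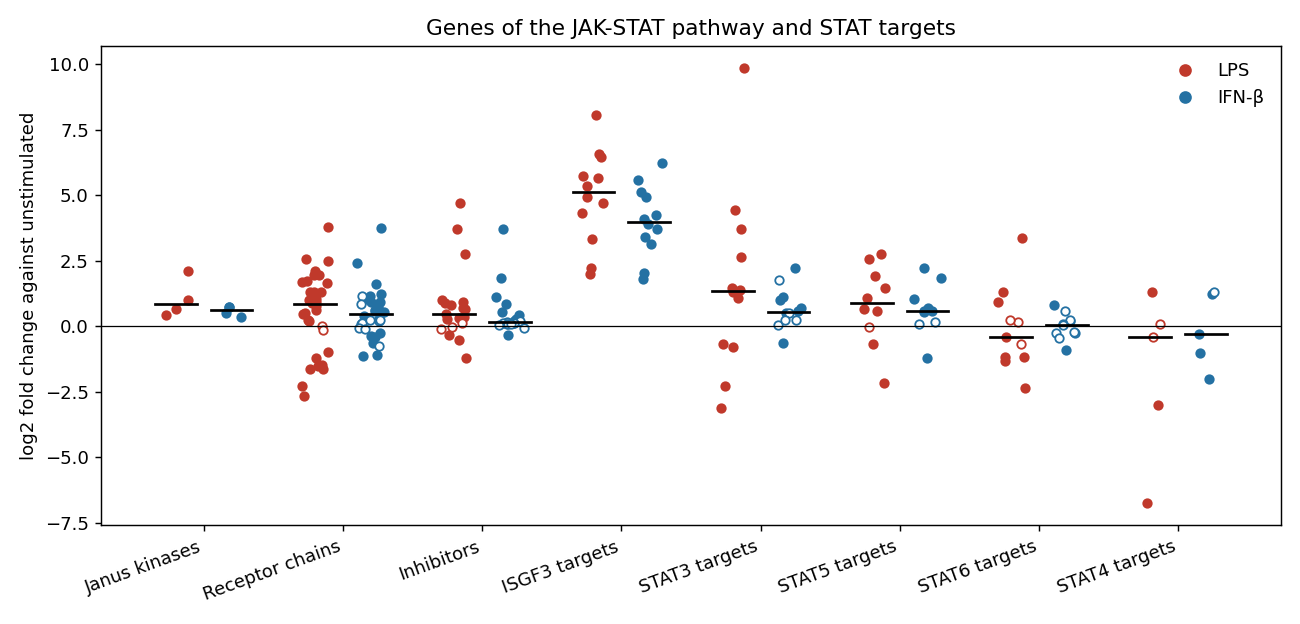
Log2 fold changes over unstimulated DCs of the tested genes in each list, with LPS in red and IFN-β in blue. Points are genes, filled where the adjusted p was under 0.05, and black bars are medians. The ISGF3 targets have medians of 5.14 and 3.98. The medians of the inhibitors are 0.46 and 0.15, and both turn negative (-0.12 and -0.16) with scaling by library size only, as does that of the STAT6 targets with IFN-β (from 0.04 to -0.27, and to -0.04 with upper-quartile factors).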

How the data were processed

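The authors made rRNA-depleted libraries (KAPA RiboErase) and read them as 100 bp paired ends, trimmed adapters with Trim Galore and mapped the reads to GRCm38 (mm10) with STAR. STAR's version is 2.7.3a in the methods and 2.7.8a in the submitters' processing notes. The authors deposited raw counts per gene (GENCODE M20), without normalization. The strand setting of the counting is not given in the sources used here, so reads in overlaps of opposite strands cannot be assigned with certainty.

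From these counts, genes were filtered with filterByExpr, scaled with TMM and fitted in 1 model over all 9 libraries with edgeR 4.0.16 in R 4.3.3 (quasi-likelihood test, Benjamini-Hochberg adjustment over 16260 genes, threshold 0.05). Levels of single libraries were compared with an exact permutation test. Gene models were those of GENCODE M21, which held 55230 of the 55471 identifiers. Exon lengths are the union of all exons. Promoter sequences are from RefSeq. The script was tested on simulated data. Alternatives were DESeq2 1.42.0, other scalings and filters, the compared groups alone, the letters as a block, and each library left out. After the group means were subtracted, all 9 pairs of libraries with the same letter correlated across genes above 0.1 (0.134 to 0.546). The 18 pairs with different letters had a mean of -0.194, a value tied to the same-letter values by the subtraction. The letters may thus pair the libraries, but the main model and the permutation tests did not use them. Only the block did, and it changed the calls of Stat2 for IFN-β against LPS and of Stat6 with LPS. Intervals and floors cover counting error only where they rest on single libraries.

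The members and the lists were chosen with earlier results of these data known. Named were the 6 genes, for each the 3 genes with the highest r among tested genes of at least 1 CPM (unnamed gene models left out), every Janus kinase, Irf9, and from the other lists those with the smallest adjusted p in each direction where a result turned on them.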

Additional observations from a re-analysis of the deposited data

How the results depend on the processing

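Of 288 log2 fold changes of STAT genes over 16 alternatives, 270 kept their direction and their side of the threshold. In 5 others, with no call under either setting, the sign turned (Stat5a with IFN-β to -0.05 with upper-quartile factors and to -0.02 and -0.07 without unstimulated library A and IFN-β library C, Stat5b with IFN-β to -0.02 with upper-quartile factors, and Stat4 for IFN-β against LPS to 0.11 under library size alone). Scaling by library size only, which moved the split of all calls with LPS from 48.1% to 21.9% higher, with IFN-β from 50.3% to 22.3% and for IFN-β against LPS from 52.5% to 77.9%, changed the most. It turned Stat6 to -0.41 with LPS, -0.20 with IFN-β and 0.21 for IFN-β against LPS, and Stat5a and Stat5b to -0.28 and -0.25 with IFN-β, so that 6 STAT genes passed with IFN-β. Stat4 with LPS fell below the threshold at 0.17. Relative to the median of all genes these values differed by at most 0.01 from the TMM values, which the subtraction fixes in advance. The replicate block changed the calls of Stat2 for IFN-β against LPS (-0.32) and of Stat6 with LPS (0.17) and no other call of a STAT gene. Stat2 for IFN-β against LPS also passed in the fit of both stimulated groups alone (-0.31), and Stat6 with LPS with DESeq2 (0.21). With each library left out in turn, Stat2 for IFN-β against LPS ranged from -0.40 to -0.29 and Stat6 with LPS from 0.13 to 0.23. The STAT genes called with LPS then numbered 5 to 6, and for IFN-β against LPS 3 to 4. The cause was not tested. Of 90 within-library ratios 87 kept their direction, and in 3 the Stat5a to Stat5b ratio with IFN-β went from -0.03 to 0.02 or 0.03 with a library left out, while 29 of 36 per-length levels moved by more than 1 SD with another length or scaling. Depth was not limiting for the STAT genes, whose lowest count was 457.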

Other observations

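Markers of other cells that GM-CSF bone marrow cultures can hold were also measured, as values only. The 6 plasmacytoid DC markers summed to 41.3 to 50 CPM in unstimulated DCs, 212 to 258 CPM under LPS and 78.1 to 101 CPM under IFN-β. Most of this came from Tcf4, and Siglech had at most 1 count. Ccr9 also rose with LPS, from 0.279 to 0.722 CPM unstimulated to 1.95 to 2.42 CPM. Spib went the other way, from 4.9 to 5.88 CPM unstimulated to 1.57 to 2.62 CPM under LPS. Neutrophil markers (10 genes) summed to 369 to 483, 249 to 327 and 338 to 433 CPM in the same order, nearly all from Mmp8 (359 to 460, 236 to 301 and 328 to 413 CPM), while Elane and Retnlg had at most 2 counts in any library. The basophil and mast cell markers (6 genes) summed to at most 1.22 CPM. Camp, another neutrophil marker, rose from 0.0449 to 0.101 CPM unstimulated to 0.612 to 1.31 CPM under LPS, where Mmp8 fell. Tcf4, Ccr9, Spib, Mmp8 and Camp were singled out after their values were seen. The part of these cells in the STAT levels was not tested.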
